A study of Mus musculus with 24 samples.

Results

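The T cell receptor variable segments were the 170 genes of the count table whose symbols begin with Trav, Trbv, Trgv or Trdv, out of 53465 genes in all. They comprised 128 alpha, 35 beta, 1 gamma and 6 delta segments. RNA had been sequenced from natural killer (NK) cells, cytotoxic innate lymphocytes, sorted from subcutaneous flank tumours of B16F10, a mouse melanoma line, 14 days after implantation into female wild-type B6 mice. The groups were CD27+CD69+, CD27+CD69-, CD11b+CD69+ and CD11b+CD69- NK cells, with 6 libraries each and 100 sorted cells per library. Every group carried the same tumour line, strain, sex and day, and no group was treated or genetically altered per the labels. CD27 is a TNF receptor family member found on less mature NK cells, CD11b (Itgam) is an integrin chain of mature NK cells, and CD69 is a lectin induced early after activation. The labels call the material melanoma, the design text calls it NK cells, and further gates of the sort are not stated in the sources at hand. Whether the 6 libraries of a group came from separate animals is not stated, so p-values measure the spread between these libraries.

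A T cell receptor chain is assembled in developing T cells by joining a variable segment to a joining segment, with a diversity segment between them in beta and delta chains. The variable segment encodes most of the part that contacts antigen, and the joined exon is spliced to a constant gene. Alpha pairs with beta and gamma pairs with delta, and either pair reaches the cell surface with the CD3 chains. NK cells need no rearranged antigen receptor for their development. Segments can also be transcribed without being joined, and a count per segment does not tell a joined from an unjoined transcript.

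The shallowest library held 1213914 counts, the median library 2213433 and the deepest 2671533, so 1 count was worth 0.38 to 0.79 CPM (the count scaled by library total and TMM factor). A floor of 3 counts stood at 1.14 to 2.37 CPM, and floors and intervals cover counting error alone because amplified fragments carried no molecular identifiers. Transcripts of the sort genes differed in the direction of the sort. Itgam averaged 4.89 CPM in CD27+CD69+ against 48.4 CPM in CD11b+CD69+ libraries, and 11.9 CPM in CD27+CD69- against 89.3 CPM in CD11b+CD69- libraries. Cd27 was higher in CD27+ libraries, with log2 differences of 1.66 (SE 0.23) in the CD69- sort and 1.28 (SE 0.23) in the CD69+ sort, both called (edgeR adjusted p = 1.04e-05 and 0.0012). Cd69 was higher in CD69+ libraries by 0.87 (SE 0.20, edgeR adjusted p = 0.0135) within CD11b+ cells and differed by 0.67 (SE 0.20, edgeR adjusted p = 0.0907) within CD27+ cells, which was not called. The 10 NK markers, among them Ncr1 and Klrb1c, had counts in all 4 populations, with summed means of 11358 CPM in CD27+CD69+, 10866 in CD27+CD69-, 22301 in CD11b+CD69+ and 27323 in CD11b+CD69- libraries. The CD27+CD69- libraries stood apart in having the most genes detected, 13287 to 14540 against 11606 to 13138 in the other 3 populations. Their 8 fibroblast markers summed to 266 to 10795 CPM, against at most 236 CPM in any other library, and their 7 melanoma markers to 1.33 to 5583 CPM, against at most 58.8 CPM. The part of this in the segment results was not tested.

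Of the 170 segments, 82 had at least 1 count and 88 had none in any library. The sequences of 7 of them are shown because they carried most counts of their chain or were counted in nearly every library of a population. Each is the last 90 coding bases of the segment (GENCODE M21, GRCm38), 5′ to 3′, with capitals on the codon of the conserved cysteine that closes the framework before the antigen-contacting loop. Trdv4 spans chr14:54074905-54075515 (plus strand), Trdv2-2 chr14:53960944-53961602 (plus), Trgv2 chr13:19336573-19337167 (minus), Trbv17 chr6:41163062-41163556 (plus), Trbv3 chr6:41048290-41048828 (plus), Trbv12-2 chr6:41118851-41119364 (plus) and Trav12-2 chr14:53616315-53616914 (plus).
Trdv4: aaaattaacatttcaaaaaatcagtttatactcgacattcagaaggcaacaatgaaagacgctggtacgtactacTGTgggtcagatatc
Trdv2-2: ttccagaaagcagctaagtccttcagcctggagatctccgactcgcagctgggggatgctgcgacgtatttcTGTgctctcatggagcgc
Trgv2: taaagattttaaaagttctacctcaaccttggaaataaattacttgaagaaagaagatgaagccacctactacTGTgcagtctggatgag
Trbv17: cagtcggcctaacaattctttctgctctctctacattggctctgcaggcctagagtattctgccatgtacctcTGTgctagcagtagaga
Trbv3: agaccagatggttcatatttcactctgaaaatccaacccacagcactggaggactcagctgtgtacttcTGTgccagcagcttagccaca
Trbv12-2: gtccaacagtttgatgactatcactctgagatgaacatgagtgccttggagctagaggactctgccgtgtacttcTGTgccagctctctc
Trav12-2: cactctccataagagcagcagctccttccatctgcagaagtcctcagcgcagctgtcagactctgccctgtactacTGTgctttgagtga
Across their coding sequences the 7 segments were 48.5% to 54.3% identical in pairs. Of windows of 50 bases, none of Trdv4, Trgv2, Trbv17 or Trbv3 recurred in another of the 170 segments, 1.24% of Trbv12-2 and 26.8% of Trav12-2 did, and 61.2% of Trdv2-2 did. Counts of Trdv2-2, whose exons also overlap Gm43647 on the opposite strand, are uncertain for both reasons, since no source at hand states the strand setting of the counting.

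The segments together took 16576 counts over the 24 libraries. Delta segments held 10181 of them (61.4%), beta 4199 (25.3%), alpha 1549 (9.34%) and the gamma segment 647 (3.9%). The chains showed opposite patterns: alpha, beta and gamma segments were counted mainly in CD27+ libraries, and delta segments were counted in every library and stood higher in CD11b+ libraries. In CD27+CD69+ libraries the segments summed to 485 ± 144 CPM, in CD27+CD69- to 294 ± 89.2, in CD11b+CD69+ to 271 ± 58.9 and in CD11b+CD69- to 227 ± 43.3 (SD, n = 6 each). In bulk libraries fewer cells of a type and less RNA per cell cannot be told apart.

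Summed beta segments had a lowest, median and highest level of 47.8, 206 and 313 CPM in CD27+CD69+ libraries and of 21.3, 135 and 215 CPM in CD27+CD69- libraries. In CD11b+CD69+ libraries they reached 21.6 CPM at most, with 0 counts in 4 of 6 libraries, and in CD11b+CD69- libraries 5.72 CPM at most, also with 0 counts in 4 of 6. Each CD27+CD69+ library was above each CD11b+CD69+ library, and each CD27+CD69- library above each CD11b+CD69- library. Summed alpha segments followed the same order, with 35.4, 74.8 and 132 CPM in CD27+CD69+ and 14.2, 29.5 and 83.2 CPM in CD27+CD69- libraries. Their highest levels were 17.2 CPM in CD11b+CD69+ and 4.55 CPM in CD11b+CD69- libraries, below every CD27+ library of the same CD69 sort. Across CD69 sorts, the lowest CD27+CD69- library lay below the highest CD11b+CD69+ library in both the alpha and the beta sum. Trgv2 made up the gamma sum, with counts in all 12 CD27+ libraries and 0 in all 12 CD11b+ libraries.

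Summed delta segments stood at 126, 174 and 198 CPM in CD27+CD69+ libraries, lowest to highest, and at 96.4, 117 and 149 CPM in CD27+CD69- libraries. They stood at 196, 253 and 374 CPM in CD11b+CD69+ and at 177, 214 and 298 CPM in CD11b+CD69- libraries. The CD27+CD69- and CD11b+CD69- ranges did not overlap, and the CD27+CD69+ and CD11b+CD69+ ranges met at 196 to 198 CPM. Delta segments were 34.7% of all segment counts in the median CD27+CD69+ library, 39.7% in the median CD27+CD69- library, 99.1% in the median CD11b+CD69+ library and 99.5% in the median CD11b+CD69- library. No test was run on these sums.

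**Figure D1:**
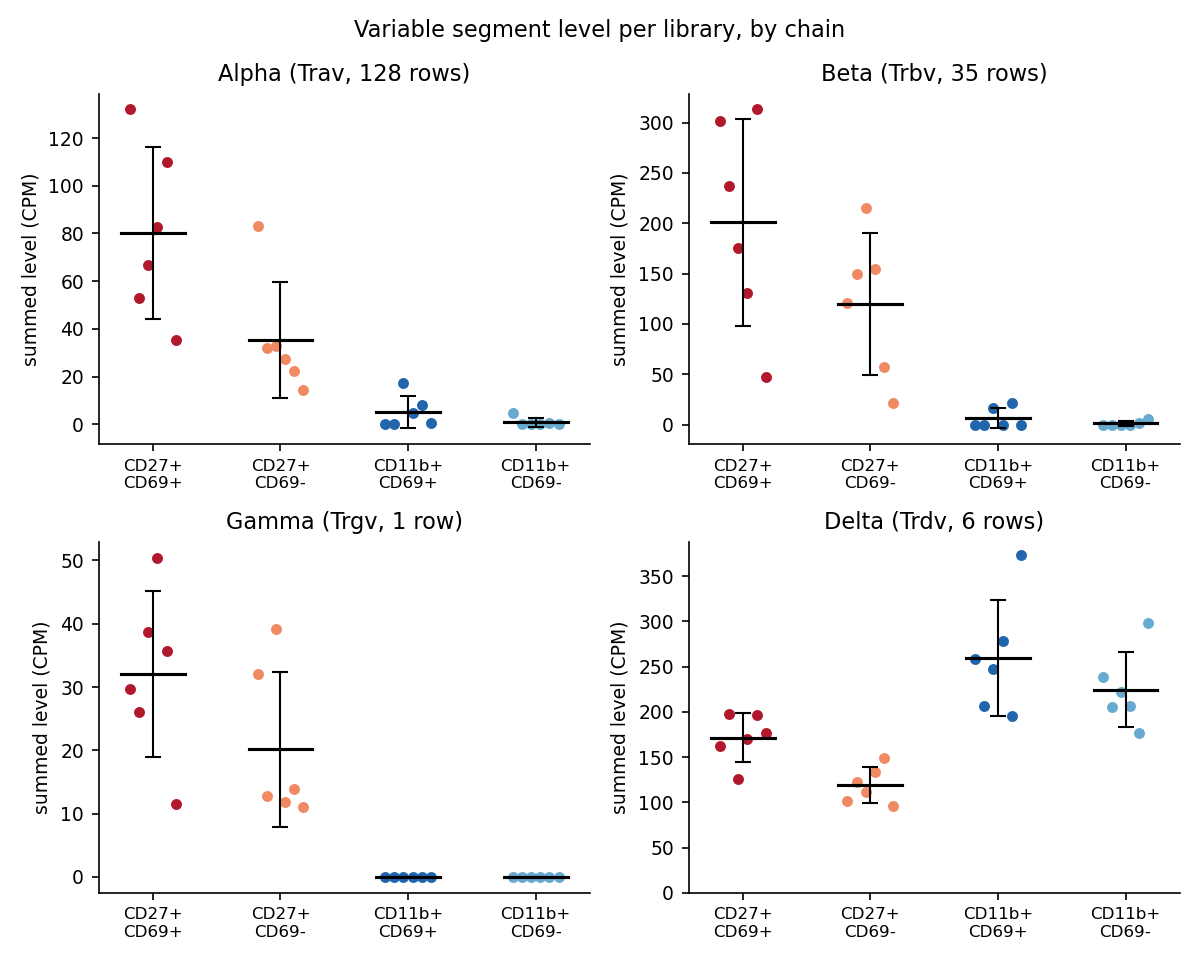
Summed level of the segments of each chain in CPM (y axis, linear) in the 24 libraries, by population (x axis). Points are libraries, horizontal lines are means and bars are SDs (n = 6 each). In CD11b+ libraries alpha sums are at most 17.2 CPM, beta sums at most 21.6 CPM and gamma sums 0. Delta sums are 96.4 CPM or more in every library.

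Single segments were tested by edgeR's quasi-likelihood test with Benjamini-Hochberg adjustment over 10536 genes, called at an adjusted p under 0.05. The filter on low counts kept 13 segments, 2 alpha, 8 beta, 1 gamma and 2 delta, and the other 157 were not tested. Segments at 0 in CD11b+ libraries passed that filter only through CD27+ libraries, so the counts of calls describe these 13 and not the 170. In CD27+CD69- against CD11b+CD69- libraries, 11 segments were higher and 1 lower, where 12.4% of all genes tested were called (7.46% higher, 4.92% lower). In CD27+CD69+ against CD11b+CD69+ libraries, 8 were higher and 1 lower, where 1.9% of genes were called (0.987% higher, 0.911% lower). CD69+ against CD69- libraries gave 1 higher segment within CD27+ cells, where 1.85% of genes were called (0.55% higher, 1.3% lower). Within CD11b+ cells they gave 0, where 2.74% of genes were called (1.64% higher, 1.1% lower), and edgeR found 1 segment at an unadjusted p under 0.05 while DESeq2 called 0. When the CD69 difference of CD27+ cells was tested against that of CD11b+ cells, 0 segments were called, where 0.579% of genes were called (0.237% higher, 0.342% lower), with 0 at an unadjusted p under 0.05 by edgeR and 0 calls by DESeq2. Trav12-2, Trbv3, Trbv12-2, Trbv13-1, Trbv13-2, Trbv16, Trbv17, Trbv19 and Trgv2 had 0 counts in every CD11b+ library. They could not be called within CD11b+ cells or in the difference of CD69 differences. The 0 calls there therefore say nothing about these segments and cover only the others tested. Comparisons that share a population share its libraries.

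Trdv4, the variable segment of the skin gamma delta T cells of the mouse, held 7981 of the 10181 delta counts and led the delta chain in each of the 24 libraries, with 65.1% to 86.7% of its counts. Its lowest, median and highest levels were 96.6, 138 and 153 CPM in CD27+CD69+ libraries and 68.8, 78.9 and 103 CPM in CD27+CD69- libraries. In CD11b+CD69+ libraries they were 155, 207 and 324 CPM, and in CD11b+CD69- libraries 138, 170 and 247 CPM. Every CD27+ library was below every CD11b+ library of the same CD69 sort. Trdv4 was lower in CD27+CD69- than in CD11b+CD69- libraries by a log2 difference of -1.06 (SE 0.17, edgeR adjusted p = 0.000101), a call kept in all 10 alternatives (adjusted p 1.45e-06 to 0.00141). In CD27+CD69+ against CD11b+CD69+ libraries the difference was -0.66 (SE 0.17, edgeR adjusted p = 0.0391). That call was lost in 7 of 10 alternatives, among them those without replicates 1, 3, 4 or 6, with adjusted p between 0.0539 and 0.149.

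Within CD27+ cells Trdv4 was higher in CD69+ than in CD69- libraries by 0.66 on the log2 scale (SE 0.17, edgeR adjusted p = 0.0451), with 6 of 6 CD27+CD69+ libraries above the median of the CD27+CD69- libraries. The call was lost without any one replicate number and without TMM, with adjusted p from 0.0516 to 0.162, so it rests on the full set of libraries. Within CD11b+ cells the difference was 0.26 (SE 0.17, edgeR adjusted p = 0.558), and the CD69 differences of CD27+ and CD11b+ cells differed by 0.40 (SE 0.24, edgeR adjusted p = 0.689), which was not called. Beside the lower Trdv4 in CD27+CD69- libraries stood lower transcripts of some lymphocyte genes, and not of others, against the same CD11b+CD69- libraries. Ptprc, the CD45 phosphatase of leukocytes, differed by -0.71 (SE 0.10), Klrb1c, which encodes the NK receptor NK1.1, by -0.94 (SE 0.11), and Ncr1, the NK receptor NKp46, by -1.08 (SE 0.10). The kinases Lck and Zap70 and the adaptor Lcp2 differed by -0.06 (SE 0.14), -0.21 (SE 0.22) and -0.14 (SE 0.13), none of them called. The delta constant gene Trdc differed by 0.51 (SE 0.20), not called, and the surface protein gene Cd28 was higher by 1.36 (SE 0.29), which was called. The part of any of these genes in the Trdv4 difference was not tested.

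Trdv2-2 was the other delta segment counted in all 24 libraries, with 2116 counts. Per kilobase of exon it averaged 102 CPM over the 24 libraries, against 341 CPM for Trdv4. Its lowest, median and highest levels were 26.3, 34.5 and 44.6 CPM in CD27+CD69+, 23.8, 33.8 and 49.4 CPM in CD27+CD69-, 37.7, 48.3 and 56.9 CPM in CD11b+CD69+ and 38.7, 45.8 and 59.1 CPM in CD11b+CD69- libraries. CD27+ and CD11b+ ranges overlapped in both CD69 sorts. Its log2 difference was -0.41 (SE 0.21) in CD27+CD69- against CD11b+CD69- and -0.49 (SE 0.21) in CD27+CD69+ against CD11b+CD69+ libraries, with edgeR adjusted p of 0.252 and 0.344, neither of them called. The number of Trdv4 counts per Trdv2-2 count had a median of 3.81 in CD27+CD69+, 2.34 in CD27+CD69-, 4.2 in CD11b+CD69+ and 3.69 in CD11b+CD69- libraries. The CD27+CD69- libraries, at 1.91 to 3.44, overlapped the other populations, whose lowest ratios were 3.43, 3.09 and 3.03.

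The remaining delta segments had few counts. Trdv1 had 36 counts in 3 CD27+CD69+ libraries, of which 18 in replicate 5 and 17 in replicate 6 (8.12 CPM in each), 4 counts in 2 CD27+CD69- libraries and 0 in CD11b+ libraries. Trdv5, which lies beyond the delta constant gene in inverted orientation and overlaps Trdc on the opposite strand, had 30 counts spread over 13 libraries of all 4 populations, at most 1.95 CPM. Trdv2-1 had 14 counts in 4 libraries, and Trdv3, an annotated pseudogene, had 0.

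**Figure D2:**
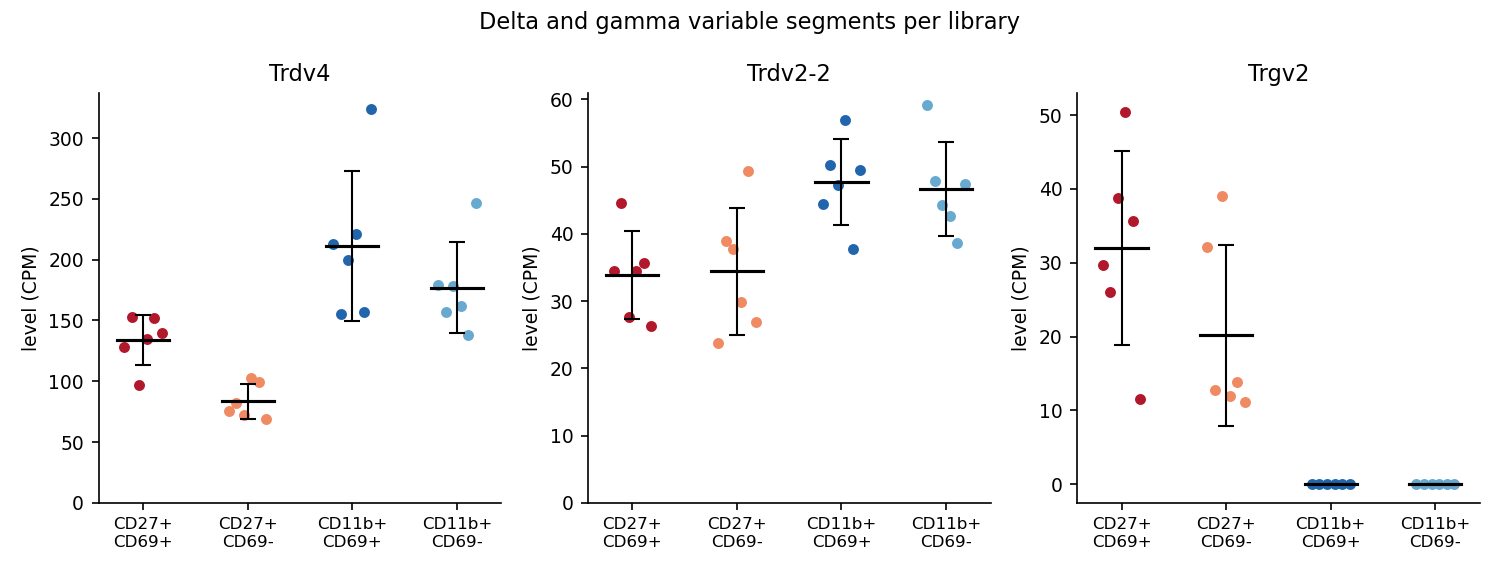
Level of Trdv4, Trdv2-2 and Trgv2 in CPM (y axes, linear, separate scales) in the 24 libraries by population (x axis), with means and SDs (n = 6 each). Trdv4 is 68.8 to 153 CPM in CD27+ and 138 to 324 CPM in CD11b+ libraries, while Trgv2 is 11.1 to 50.4 CPM in CD27+ libraries and 0 in CD11b+ libraries.

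Trgv2, 1 of the mouse gamma variable segments, was counted 402 times in CD27+CD69+ and 245 times in CD27+CD69- libraries. Its lowest, median and highest levels were 11.5, 32.7 and 50.4 CPM in CD27+CD69+ and 11.1, 13.4 and 39.1 CPM in CD27+CD69- libraries, ranges that overlapped almost entirely. Against the floor of 3 counts over the 6 CD11b+ libraries it was at least 139-fold higher in CD27+CD69+ than in CD11b+CD69+ libraries (edgeR adjusted p = 9.34e-06) and at least 96.3-fold higher in CD27+CD69- than in CD11b+CD69- libraries (edgeR adjusted p = 3.9e-06). Both calls held in all 10 alternatives. The table names 6 further gamma variable genes Tcrg-V, which the naming rule leaves out. Together they had 426 counts in CD27+CD69+, 235 in CD27+CD69-, 8 in CD11b+CD69+ and 8 in CD11b+CD69- libraries. Tcrg-V1 and Tcrg-V4 were the ones counted in all 12 CD27+ libraries.

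Trbv17 was the most counted beta segment, with 836 counts in 5 CD27+CD69+ libraries, 149 in 4 CD27+CD69- libraries and 0 in all CD11b+ libraries. In CD27+CD69+ libraries it was uneven, with 0 CPM in replicate 4, 8.12 in replicate 6, 29.7 in replicate 3, 83.1 in replicate 1, 113 in replicate 2 and 140 in replicate 5. In CD27+CD69- libraries its lowest, median and highest levels were 0, 10.5 and 33.1 CPM. It was at least 290-fold higher in CD27+CD69+ than in CD11b+CD69+ libraries (edgeR adjusted p = 0.00997) and at least 58.6-fold higher in CD27+CD69- than in CD11b+CD69- libraries (edgeR adjusted p = 0.0135). The first call was lost without replicate 2 or 3 and the second without replicate 3, and both without the filter on low counts, with adjusted p up to 0.11.

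Trbv12-2 and Trbv13-2 were spread more evenly and were counted in all 12 CD27+ libraries and in no CD11b+ library. Trbv12-2 had a lowest, median and highest level of 2.19, 10.4 and 29.7 CPM in CD27+CD69+ and of 0.79, 14.3 and 24.5 CPM in CD27+CD69- libraries. Trbv13-2 had 6.77, 16.5 and 25.7 CPM in CD27+CD69+ and 3.54, 7.47 and 15.6 CPM in CD27+CD69- libraries. CD69+ and CD69- libraries overlapped for both segments. Trbv12-2 was at least 62-fold higher in CD27+CD69+ than in CD11b+CD69+ (edgeR adjusted p = 0.00176) and at least 62.9-fold higher in CD27+CD69- than in CD11b+CD69- libraries (edgeR adjusted p = 0.00034). Trbv13-2 was at least 72.7-fold higher in CD27+CD69+ (edgeR adjusted p = 0.000315) and at least 38.5-fold higher in CD27+CD69- libraries (edgeR adjusted p = 0.000151) than in the CD11b+ libraries of the same CD69 sort. These 4 calls held in all 10 alternatives.

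Trbv3 and Trbv16 were each at 0 in the 12 CD11b+ libraries. Trbv3 had 294 counts in 5 CD27+CD69+ libraries and 123 in 5 CD27+CD69- libraries, and it was at least 102-fold higher than in CD11b+ libraries in the CD69+ sort (edgeR adjusted p = 0.0103) and at least 48.3-fold higher in the CD69- sort (edgeR adjusted p = 0.00612). The first of these calls was lost without replicate 5, at an adjusted p of 0.0689. Trbv16 had 95 counts in 3 CD27+CD69+ libraries and 193 counts in 6 of 6 CD27+CD69- libraries, and it was at least 75.8-fold higher than in CD11b+ libraries in the CD69- sort (edgeR adjusted p = 0.00575) and missed the threshold in the CD69+ sort (edgeR adjusted p = 0.0528). The direct comparison of CD27+CD69+ with CD27+CD69- libraries did not call Trbv16 (log2 difference -1.07, SE 1.23, edgeR adjusted p = 0.894).

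The calls of Trbv19, Trbv13-1 and Trbv12-1 were less stable. Trbv19, with 207 counts in CD27+CD69+ libraries and 53 in CD27+CD69- libraries, was called in both sorts (edgeR adjusted p = 0.0306 for CD69+ and 0.0297 for CD69-) and lost each call in 5 of 10 alternatives. Trbv13-1, with 109 counts in CD27+CD69+ libraries and 92 in CD27+CD69- libraries, was called in the CD69- sort (edgeR adjusted p = 0.0306) and lost the call without replicate 1, 2 or 4 and with the replicate block, while in the CD69+ sort it was not called (edgeR adjusted p = 0.0952). Trbv12-1 had 157 counts in CD27+CD69+, 58 in CD27+CD69-, 46 in 1 CD11b+CD69+ library and 0 in CD11b+CD69- libraries. Its call in the CD69- sort (edgeR adjusted p = 0.0492) was lost in 6 of 10 alternatives, with adjusted p of 0.0654 to 0.124. Of the other beta segments, 13 had between 2 and 285 counts in all, and 14 had none, 12 of these being annotated pseudogenes and the others Trbv21 and Trbv30.

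**Figure D3:**
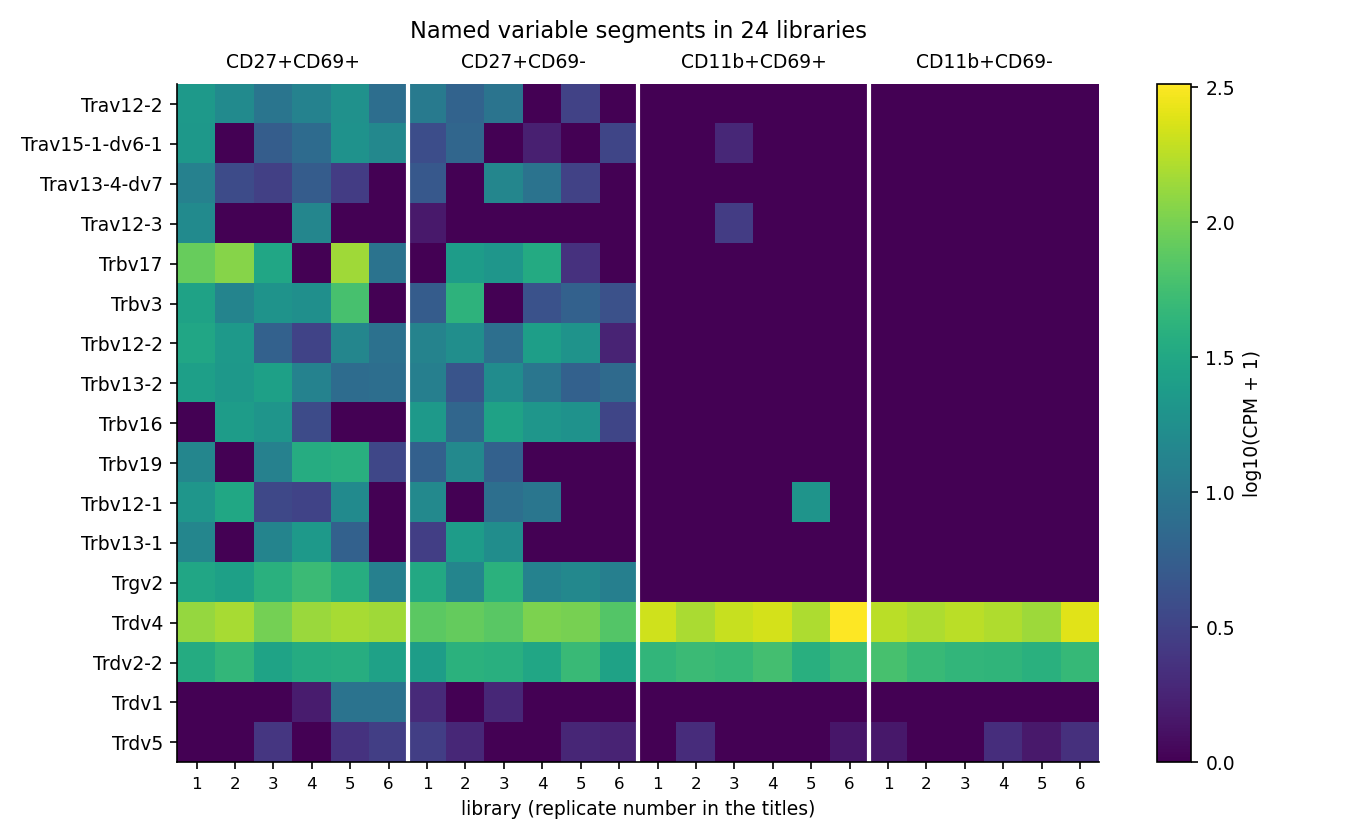
Level of the 17 named segments (rows) in the 24 libraries (columns, grouped by population and numbered by replicate), coloured by log10(CPM + 1). Trdv4 and Trdv2-2 are filled in all 24 columns, Trgv2, Trbv12-2 and Trbv13-2 in the 12 CD27+ columns, and most other beta and alpha rows in some CD27+ columns.

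Alpha counts were the most scattered, with 1549 counts over 55 of 128 segments, 13 of which were counted in a single library. Trav12-2 led with 180 counts in 6 of 6 CD27+CD69+ libraries, 55 in 4 of 6 CD27+CD69- libraries and 0 in CD11b+ libraries. Its lowest, median and highest levels were 7.17, 13.5 and 22.1 CPM in CD27+CD69+ and 0, 3.71 and 9.73 CPM in CD27+CD69- libraries. It was at least 62.3-fold higher in CD27+CD69+ than in CD11b+CD69+ (edgeR adjusted p = 0.00484) and at least 21.6-fold higher in CD27+CD69- than in CD11b+CD69- libraries (edgeR adjusted p = 0.00484), and both calls held in all 10 alternatives. CD27+CD69+ and CD27+CD69- libraries did not differ past the threshold (log2 difference 1.64, SE 0.99, edgeR adjusted p = 0.654).

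Trav15-1-dv6-1, a segment whose name marks use in alpha and delta chains, had 142 counts in CD27+CD69+, 23 in CD27+CD69-, 2 in CD11b+CD69+ and 0 in CD11b+CD69- libraries. It was called in both CD69 sorts (edgeR adjusted p = 0.0435 for CD69+ and 0.0274 for CD69-) and lost the calls in 7 and 6 of 10 alternatives. Trav13-4-dv7 had 51 counts in CD27+CD69+ libraries and 54 in CD27+CD69- libraries, and Trav12-3 had 61 counts in 2 CD27+CD69+ libraries, 1 in a CD27+CD69- library and 4 in a CD11b+CD69+ library. Neither passed the filter on low counts. The 10 alpha segments with such double names held 423 counts in 8 of them, 394 in CD27+ libraries, so up to that many counts filed here under alpha could belong to delta chains.

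Annotated pseudogenes held few counts, 25 in 2 of 20 alpha, 14 in 1 of 13 beta and 0 in 1 delta pseudogene. Alpha segments also share sequence. The 73 alpha segments at 0 had a median of 100% of their windows of 50 bases in common with another segment, against 44.2% for the 55 with counts. No source at hand states how reads that match several segments were counted, so a 0 for such a segment is a statement about the table. Of the counts, 64.5% fell on the 32 alpha segments nearest the delta constant gene, at -588.8 to -165.7 kb from its start, where 24 of the 32 had counts. The 32 segments farthest from it, at -1714.9 to -1214.5 kb, held 8.84%, with 10 of 32 counted. Between these, the 32 segments at -903.6 to -597.8 kb held 21.3%, with 14 of 32 counted. The 32 at -1213.1 to -911.4 kb held the least, 5.36%, with 7 of 32 counted, so the share did not fall steadily with distance.

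**Figure D4:**
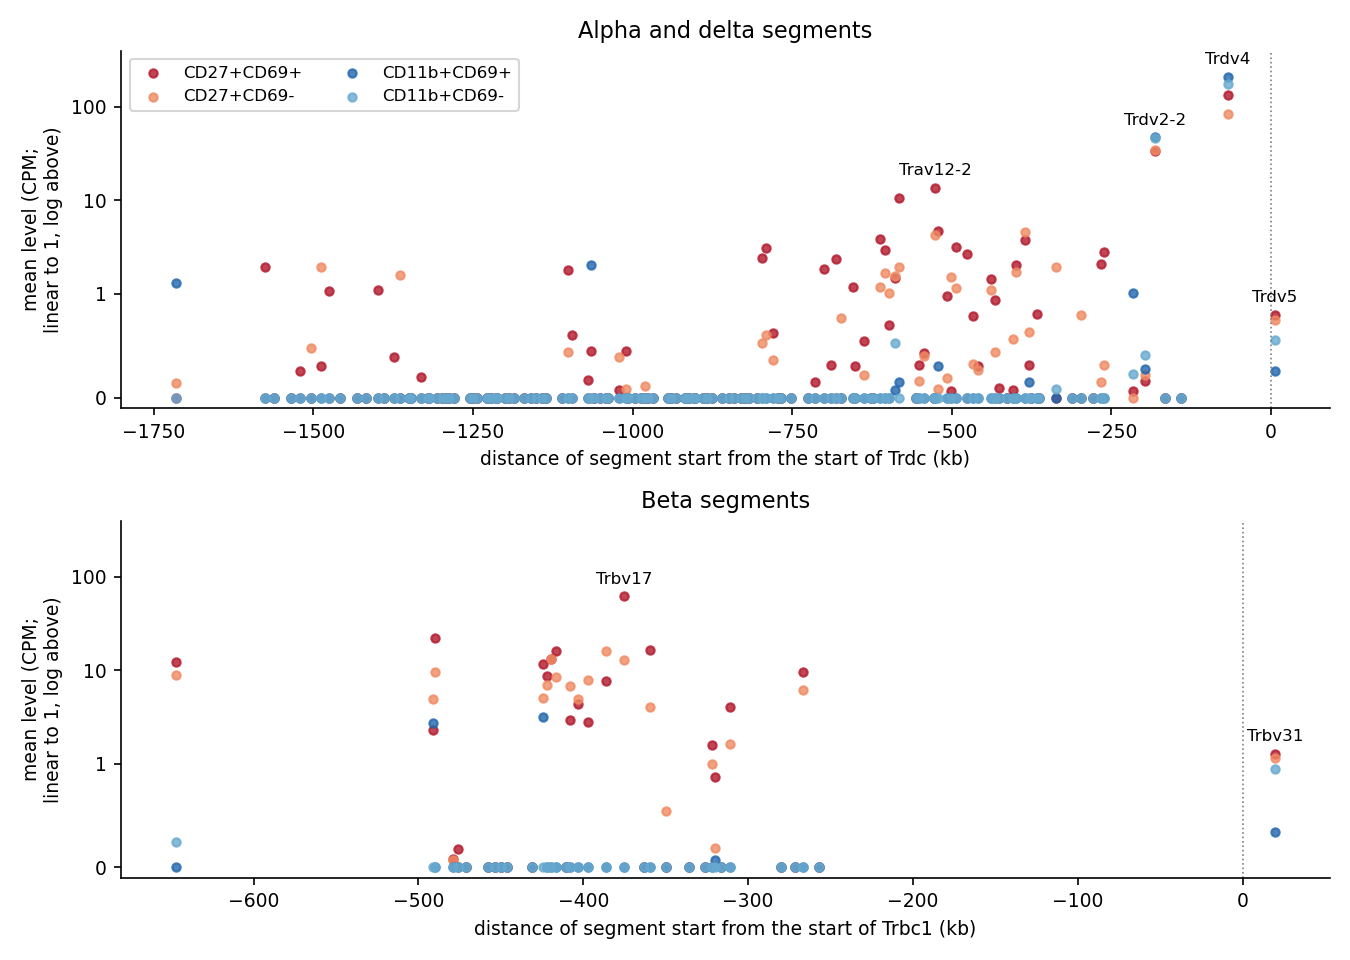
Mean level of each segment in CPM (y axes, linear to 1 and logarithmic above) against the distance of its start from the start of Trdc (upper panel, alpha and delta segments) or Trbc1 (lower panel, beta segments) in kb (x axes). Points are means of 6 libraries, coloured by population. The highest alpha and delta points are those of Trdv4 and Trdv2-2, and the highest beta point is that of Trbv17.

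The number of alpha segments with a count in a library was 7 to 22 in CD27+CD69+ (median 16), 7 to 23 in CD27+CD69- (median 10.5), 0 to 5 in CD11b+CD69+ and 0 to 2 in CD11b+CD69- libraries. The number of beta segments was 8 to 15 in CD27+CD69+ (median 12.5), 7 to 17 in CD27+CD69- (median 13), 0 to 3 in CD11b+CD69+ and 0 or 1 in CD11b+CD69- libraries. The segments that led a chain varied between libraries. Among beta segments, Trbv17 led in 4 CD27+CD69+ libraries with 17% to 47.7% of beta counts, Trbv19 in replicate 4 with 26.8% and Trbv1 in replicate 6 with 26%. The 6 CD27+CD69- libraries were led by Trbv29, Trbv3, Trbv1, Trbv17, Trbv12-2 and Trbv13-2, a different segment in each, with 17.1% to 32.6%.

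**Figure D5:**
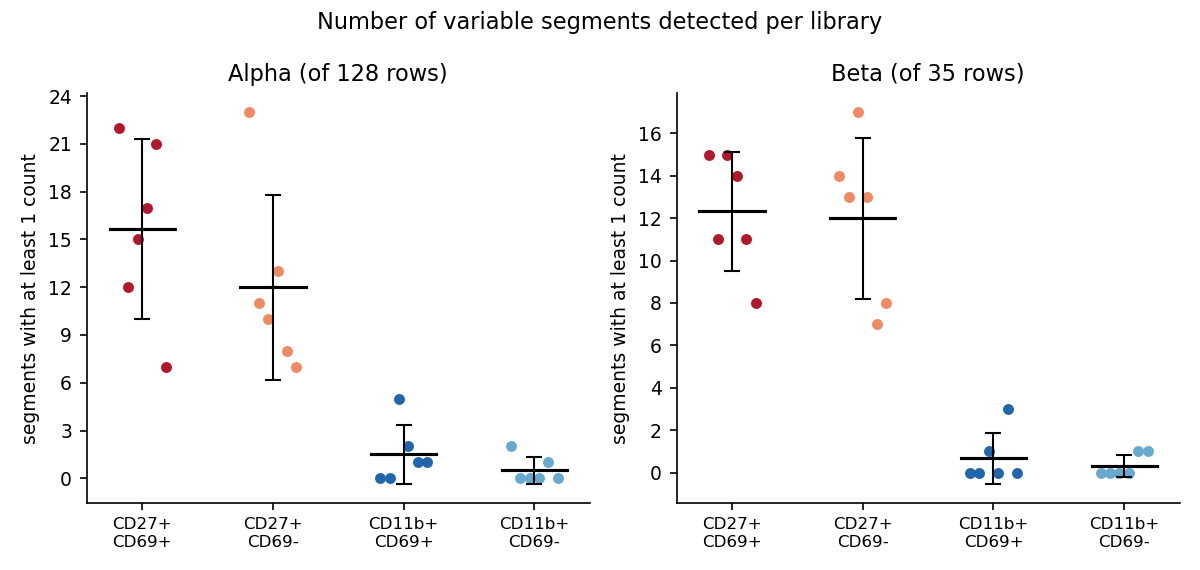
Number of alpha (of 128) and beta (of 35) segments with at least 1 count (y axes) in each library, by population (x axis), with means and SDs (n = 6 each). CD27+ libraries hold 7 to 23 alpha and 7 to 17 beta segments, and CD11b+ libraries at most 5 alpha and 3 beta segments.

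Recurrence over the 6 libraries of a population separated the populations in the same way. In CD27+CD69+ cells 74 segments were counted in at least 1 library, 34 in at least 3 and 6 in all 6, namely Trav12-2, Trbv13-2, Trbv12-2, Trgv2, Trdv2-2 and Trdv4. In CD27+CD69- cells the numbers were 62, 29 and 6, the last being Trbv13-2, Trbv16, Trbv12-2, Trgv2, Trdv2-2 and Trdv4. In CD11b+CD69+ cells 15 segments were counted in at least 1 library, and Trdv2-2 and Trdv4 were the 2 counted in at least 3, each in all 6. In CD11b+CD69- cells 9 were counted in at least 1 library and 3 in at least 3, with Trdv2-2 and Trdv4 again in all 6 and Trdv5 in 4. With each library thinned to 1213914 counts, the total of the shallowest, the numbers in all 6 libraries were unchanged at 6, 6, 2 and 2 in the order CD27+CD69+, CD27+CD69-, CD11b+CD69+ and CD11b+CD69-.

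By chain, alpha segments recurred least. Of the 48 alpha segments counted in CD27+CD69+ libraries, 25 were counted in a single library and 1 in all 6, and of the 36 in CD27+CD69- libraries 15 were counted in a single library and none in 5 or more. Of 20 beta segments counted in CD27+CD69+ libraries, 2 were counted in a single library and 12 in at least 4, and of 20 in CD27+CD69- libraries 2 and 10. The libraries share a replicate number across populations in their titles. CD27+CD69+ and CD27+CD69- libraries with the same number shared a median of 22.9% of the alpha segments of the CD27+CD69+ library, over 6 pairs, and libraries with different numbers 27%, over 30 pairs. For beta segments these medians were 67.5% and 65.2%. As a share of the CD27+CD69- library the alpha medians were 39.2% and 41.4% and the beta medians 73.9% and 66.5%.

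The few alpha and beta counts of CD11b+ libraries recurred little, and none of these segments was counted in more than 2 libraries of a CD11b+ population. CD11b+CD69+ libraries held 156 of them in 4 of 6 libraries over 11 segments, and CD11b+CD69- libraries 28 in 3 of 6 libraries over 5 segments. CD27+CD69+ libraries held 4089 alpha, beta and gamma counts over 69 segments, and CD27+CD69- libraries 2122 over 57. In CD11b+CD69+ replicate 5, Trbv12-1 had 46 counts and Trav1 had 19, and in replicate 3, Trbv2 had 36 and Trav14d-3-dv8 had 27. Trav22 was counted in CD11b+CD69+ replicates 3 and 4, with 4 and 9 counts, and in CD11b+CD69- replicate 1, with 3. Trav14-3 had 1 count in each of CD11b+CD69+ replicates 4 and 6, and Trav14-1 and Trbv31 were counted in 1 library of each CD11b+ population. In CD11b+CD69- replicate 6, Trbv31, which lies beyond the beta constant genes in inverted orientation, had 14 counts. Cd3d and Cd3e, which encode CD3 chains, were highest in the same CD11b+CD69+ libraries, with Cd3d at 49 CPM in replicate 3 and 18.2 CPM in replicate 5, against 0.432 to 2.89 CPM in the other 4, and Cd3e at 4.54 and 4.14 CPM against 0. Cd3g, which encodes another CD3 chain, had 97.8 CPM in replicate 5 and 31.3 CPM in replicate 3, the second of these below the 38.4 and 35.8 CPM of replicates 1 and 2, which held no alpha or beta counts.

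Segments that mark invariant T cells were looked up by name. Trav11 and Trav11d, which form the invariant chain of NKT cells with Traj18, and Trav11n, an annotated pseudogene, had 0 counts in all 24 libraries, where 3 counts would have been 1.14 to 2.37 CPM. They are among the 73 alpha segments at 0, which shared a median of 100% of their windows with another segment. How reads that match several segments were counted is not stated, so that floor does not cover such reads. Traj18 had 24 counts in CD27+CD69+, 22 in CD27+CD69-, 0 in CD11b+CD69+ and 1 in CD11b+CD69- libraries. Trav1, the segment of MAIT cells, had 2 counts in a CD27+CD69- library and the 19 counts in the CD11b+CD69+ library named above, while Traj33, its usual partner, had 1 count in a CD27+CD69+ library and 0 elsewhere.

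The beta constant genes were counted at high levels in all 4 populations. Summed Trbc1 and Trbc2, the near-identical beta constant genes, averaged 1495 ± 108 CPM in CD27+CD69+, 1182 ± 239 in CD27+CD69-, 1168 ± 111 in CD11b+CD69+ and 954 ± 131 in CD11b+CD69- libraries (SD, n = 6 each). Trbc2 alone averaged 437 ± 99.5 CPM in CD27+CD69+, 315 ± 121 in CD27+CD69-, 160 ± 17.2 in CD11b+CD69+ and 151 ± 48 in CD11b+CD69- libraries. Its log2 difference was 1.45 (SE 0.23, edgeR adjusted p = 0.000346) in CD27+CD69+ against CD11b+CD69+ libraries and 1.09 (SE 0.23, edgeR adjusted p = 0.00162) in CD27+CD69- against CD11b+CD69- libraries. The split of reads between Trbc1 and Trbc2 is uncertain because the copies are near-identical. Per 100 beta constant counts there were 13.8 beta variable counts in CD27+CD69+, 10.2 in CD27+CD69-, 0.569 in CD11b+CD69+ and 0.13 in CD11b+CD69- libraries. The 7 joining segments of the first beta cluster were counted in all 24 libraries, with sums of 311 ± 67 CPM in CD27+CD69+, 274 ± 112 in CD27+CD69-, 350 ± 36 in CD11b+CD69+ and 273 ± 57.9 in CD11b+CD69- libraries. Trbd1, the diversity segment before them, averaged 51.2 CPM in CD27+CD69+, 45.1 in CD27+CD69-, 61.6 in CD11b+CD69+ and 51.2 in CD11b+CD69- libraries. None of these joining and diversity segments, nor Trbc1, was called in the 5 comparisons by edgeR.

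Trac, the alpha constant gene, averaged 297 ± 108 CPM in CD27+CD69+, 150 ± 63.2 in CD27+CD69-, 49.8 ± 20.7 in CD11b+CD69+ and 35 ± 12.7 in CD11b+CD69- libraries. It was higher by a log2 difference of 2.57 (SE 0.33, edgeR adjusted p = 1.65e-05) in CD27+CD69+ than in CD11b+CD69+ libraries and by 2.13 (SE 0.33, edgeR adjusted p = 5.41e-05) in CD27+CD69- than in CD11b+CD69- libraries. The gamma constant genes Tcrg-C1 and Tcrg-C2, like Trgv2, were counted in all 12 CD27+ libraries and in no CD11b+ library, and Tcrg-C4 also in 4 CD11b+CD69+ and 4 CD11b+CD69- libraries. Trdc, the delta constant gene, was counted in all 24 libraries, at 150 ± 23.4 CPM in CD27+CD69+, 113 ± 37 in CD27+CD69-, 103 ± 20.2 in CD11b+CD69+ and 80.9 ± 18.4 in CD11b+CD69- libraries, and no comparison called it. Per 100 Trdc counts there were 114 delta variable counts in CD27+CD69+, 102 in CD27+CD69-, 255 in CD11b+CD69+ and 275 in CD11b+CD69- libraries.

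Cd3e, Cd3d and Cd3g, which encode chains that carry the receptor to the surface, were higher in CD27+ than in CD11b+ libraries. Cd3e had a lowest, median and highest level of 70.3, 150 and 183 CPM in CD27+CD69+ and of 34, 80.3 and 132 CPM in CD27+CD69- libraries, against at most 4.54 CPM in CD11b+CD69+ and 0.49 CPM in CD11b+CD69- libraries. It was called in both CD69 sorts (edgeR adjusted p = 1.85e-07 for CD69+ and 2.07e-08 for CD69-), as were Cd3d and Cd3g. Cd3g averaged 547 ± 176 CPM in CD27+CD69+, 296 ± 140 in CD27+CD69-, 39.2 ± 30.5 in CD11b+CD69+ and 3.18 ± 7.79 in CD11b+CD69- libraries (SD, n = 6 each). It was counted in 6 of 6 CD11b+CD69+ libraries, also where alpha, beta and gamma counts were 0, and in 1 of 6 CD11b+CD69- libraries. Cd247, the zeta chain that also serves NK receptors, averaged 215 CPM in CD27+CD69+, 195 in CD27+CD69-, 227 in CD11b+CD69+ and 326 in CD11b+CD69- libraries. It was lower in CD27+CD69- than in CD11b+CD69- libraries by -0.72 (SE 0.22, edgeR adjusted p = 0.0294), a call lost in 6 of 10 alternatives.

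Of the 126 genes of the receptor pathway list (constant genes, CD3 chains, recombination, coreceptor, signalling and lineage genes, joining and diversity segments), 43 were tested. Among these, Tcrg-C1, Tcrg-C2 and Cd6 had 0 counts in every CD11b+ library and passed the filter on low counts only through CD27+ libraries. Trat1 and Themis had 0 counts in every CD11b+CD69- library. The counts of calls and the medians therefore describe these 43 genes and not the 126. In CD27+CD69- against CD11b+CD69- libraries 15 were higher and 3 lower, where 12.4% of all genes tested were called, with a median log2 difference of 0.45 beside 0.05 over all genes tested. The higher ones were the constant genes Trac, Trbc2, Tcrg-C1, Tcrg-C2 and Tcrg-C4, the chains Cd3d, Cd3e and Cd3g, the surface proteins Cd5, Cd6, Cd8a, Cd28 and Trat1, the signalling protein Themis and the transcription factor Tcf7. The lower ones were Cd247, Ptprc and the kinase Txk. In CD27+CD69+ against CD11b+CD69+ libraries 12 were higher and none lower, where 1.9% of all genes were called, with a median of 0.33 beside 0.02. These 12 were the same except for Cd28, Trat1 and Themis. CD69+ against CD69- libraries gave Lcp2, a signalling adaptor, within CD27+ cells (log2 difference 0.52, SE 0.13, edgeR adjusted p = 0.0315) and Cd3g and Tcf7 within CD11b+ cells (3.72, SE 0.82, and 1.22, SE 0.31, with edgeR adjusted p = 0.0112 and 0.0246). With 1.85% of all genes called within CD27+ cells and 2.74% within CD11b+ cells, this 1 gene and these 2 of 43 lie near the share of all genes. These 3 calls were lost without some replicate numbers, Lcp2 without 3, 4, 5 or 6, Cd3g without 1, 2 or 3 and Tcf7 without 1, 2, 3 or 4. Over all comparisons, 23 of 33 calls of a pathway gene held in every alternative. Themis lost its call in 7 alternatives, DESeq2 (adjusted p = 0.0655) and the replicate block (edgeR adjusted p = 0.0758) among them, with adjusted p of 0.0626 to 0.117. Cd8a lost its call in 3 alternatives among CD69- and in 1 among CD69+ libraries. In CD27+CD69+ against CD11b+CD69+ libraries, Cd5 and Tcf7 each lost theirs in 6 and Cd6 in 4.

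Beside the segments, the summed level of 12 T cell markers averaged 3258 CPM in CD27+CD69+ (range 2387 to 3856), 2310 in CD27+CD69- (1206 to 2935), 1468 in CD11b+CD69+ (1359 to 1760) and 1115 in CD11b+CD69- libraries (924 to 1302), with Trbc1 alone at 1058, 868, 1008 and 803 CPM in that order of populations. Cd4 was at 0 in CD27+CD69+ libraries, Cd6 and Cd8a in CD11b+CD69+ libraries, and Cd4, Cd6 and Cd8b1 in CD11b+CD69- libraries. Cd4 had 25 counts in 1 CD11b+CD69+ library (11.3 CPM) and 17 counts in 1 CD27+CD69- library (8.27 CPM). Foxp3, a lineage gene of the pathway list, had 44 counts in 1 CD11b+CD69+ library (20 CPM) and 0 in the other populations. Cd8a averaged 13.4 CPM in CD27+CD69+, 9.89 in CD27+CD69-, 0 in CD11b+CD69+ and 0.326 in CD11b+CD69- libraries. Rag1, Rag2 and Ptcra, which act in receptor assembly in the thymus, had 0 counts in all 24 libraries. Among gamma delta T cell markers, Il17a was at 0 in all 4 populations and Sox13 and Cd163l1 in both CD11b+ populations. The part of T cells in the segment counts was not tested.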

How the data were processed

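Polyadenylated RNA of 24 libraries, 4 populations with 6 libraries each, had been reverse transcribed and amplified in lysis buffer of 100 sorted cells with the SMART-Seq v4 kit and made into libraries with Nextera XT, per the labels' protocols. The authors deposited unnormalized counts, 1 row per Ensembl gene and 1 column per library. The submitters' processing notes name GRCm38, HTSeq and Picard and give no versions. For the aligner, annotation release, strand setting and treatment of reads that match several genes, nothing is given in the sources used here. Groups and replicate numbers came from the titles.

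The table held 53471 entries, and 53465 genes after repeated identifiers. Rows without a symbol held 0.174% of counts. Segments were found by symbol, and all 170 had an entry in GENCODE M21, from which positions, overlaps and sequences were read. Itgam stands on 2 identifiers, and ENSMUSG00000030786 was used. The gamma constant genes, listed as Trgc, were read under the table's Tcrg-C symbols. No protein or promoter sequences of the segments were used here.

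Counts were tested with edgeR 4.0.16 in R 4.3.3 (quasi-likelihood F-test, robust, filterByExpr with minimum count 10, TMM factors 0.9584 to 1.056, 4 group means, Benjamini-Hochberg over 10536 genes, threshold 0.05). Summed levels per chain and recurrence were described without a test. CPM are TMM-scaled. A population at 0 was set at a floor of 3 counts over its 6 libraries for lower bounds. Replicate libraries differed by 10.3 to 32.3 in chi-square per degree of freedom over 60 pairs. The tests were tested on simulated data before use. Alternatives were DESeq2 1.42.0, no TMM, no filter on low counts, a replicate block and leaving out each replicate number.

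Named segments were those called in a comparison, the 4 with the highest mean CPM of each chain, those counted in 6 of 6 libraries of a population and the one with the highest single count of each chain. Trbv1, Trbv2, Trbv21, Trbv29, Trbv30, Trbv31, Trdv2-1, Trdv3, Trav1, Trav14-1, Trav14-3, Trav14d-3-dv8, Trav22 and the Trav11 group fall outside that rule and were named after their values were seen or as cell type markers. The members and lists were chosen with earlier results of these data known.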

Additional observations from a re-analysis of the deposited data

Results flagged for a closer look

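Within groups of 6 libraries, 57 sets of values were screened for a library far from the other 5 by Dixon's test of the gap against the range, and 10 stood out. The test's rate of about 1 in 20 holds for independent values of normal distribution. Several sets were low counts with many values at 0, and the sums contain segments screened beside them, so the 10 cannot be set against that rate. In 4 of the 10, 5 libraries held 0 counts, so any count in the sixth stands out by construction. In CD27+CD69- cells, summed alpha segments were 83.2 CPM in replicate 1, next 32.7. Trbv3 was 41.2 CPM in replicate 2, next 5.07, and Trbv19 was 14.2 CPM in the same library, next 5.06. Trav12-3 was 0.486 CPM in replicate 1, a single count, with 0 in the other 5. In CD11b+CD69+ cells, Trbv12-1 was 19.1 CPM in replicate 5 (46 counts) with 0 in the other 5. In replicate 3, Trav12-3 was 1.82 CPM (4 counts) and Trav15-1-dv6-1 was 0.908 CPM (2 counts), each with 0 in the other 5. Trdv5 was 1.1 CPM in replicate 2 (2 counts), next 0.412. In CD11b+CD69- cells, summed alpha segments were 4.55 CPM in replicate 1 (10 counts), next 0.49, and summed beta segments were 5.72 CPM in replicate 6 (14 counts of Trbv31), next 1.47.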

How the results depend on the processing

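The 152 alternative values of the chain sums moved by at most the SD of the 6 libraries. Leaving out 1 of 6 libraries cannot move a mean by that SD, and gamma sums of CD11b+ libraries were 0 throughout. For those values the outcome was fixed in advance, so they are no evidence of stability. The 24 alternative values of the recurrence counts moved by at most 1.5 times. Of the 22 calls of a segment in a comparison, 11 held in every alternative and none changed sign. Where the segment had 0 counts in the CD11b+ population compared, as in most of these calls, no alternative could reverse the sign. There the unchanged sign is no evidence of stability. In CD27+CD69- against CD11b+CD69- libraries the number of segments called, 12, became 19 without the filter on low counts, which tested 82 segments, and 7 to 13 when a replicate number was left out. In CD27+CD69+ against CD27+CD69- libraries the 1 call became 0 without TMM and 0 when any replicate number was left out. Pathway genes called within CD11b+ cells, 2, became 5 with DESeq2, 1 without the filter and 0 to 3 with a replicate number left out. Within CD27+ cells the 1 call became 0 to 1, and for the difference of CD69 differences 0 became 0 to 1. The uncalled CD69 difference of Trdv2-2 changed sign, to -0.05 within CD11b+ cells without replicate 4 and to 0.03 and 0.06 within CD27+ cells without replicates 3 and 5, in ranges of -0.05 to 0.13 and of -0.15 to 0.06 with a replicate number left out. The cause was not tested.

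Without TMM the median of all genes in CD27+CD69- against CD11b+CD69- libraries was 0.142 on the log2 scale, beside 0.051. With the replicate number as a block, 9, 6, 1, 0 and 0 segments were called in CD27+CD69- against CD11b+CD69-, CD27+CD69+ against CD11b+CD69+, the CD69 comparisons within CD27+ and within CD11b+ cells and their difference, beside 12, 9, 1, 0 and 0. Pairs of libraries with the same number had correlations of -0.029 to 0.207 after removal of group means, 1 of 36 over 0.1, and 4 of 24 libraries correlated best with their own number, so the numbers are not shown to pair them. At 1213914 to 2671533 counts per library, segments under 1.14 to 2.37 CPM were at or below 3 counts.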
